A study of Mus musculus with 10 samples.

Results

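The comparison described here set 3 libraries of immunopurified (IP) RNA, those titled Rep3, against the 6 IP libraries titled Rep1 or Rep2, out of 10 libraries in the series. All came from the cerebral cortex of mice of the S100a10-TRAP line ES691, which carries the green fluorescent protein EGFP fused to ribosomal protein L10a under S100a10 regulatory sequences. The labels describe the cells as neurons. In translating ribosome affinity purification (TRAP) the cortex is homogenised, ribosomes that carry the tag are captured on beads with anti-EGFP antibodies, and the RNA they hold is sequenced. The 9 IP libraries fell into 3 treatment groups of 3, and each group had 1 library titled Rep1, 1 titled Rep2 and 1 titled Rep3. The groups were saline self-administration, cocaine self-administration and yoked control, and the tenth library was the input of a saline sample, that is RNA before the purification. Every group carries the transgene. The dose, the length of self-administration, what the yoked animals received, their age and sex, and the number of animals behind a library were not given in the sources used here, so the spread between libraries may be technical.

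The libraries titled Rep3 were chosen because their gene counts stood apart from the rest, so all fold changes between the Rep3 and the other libraries are given as descriptions, without p-values. The treatment group was a term of the fit, and no contrast between treatments is described. In each group Rep1 carried the index read ACAGTG, Rep2 GCCAAT and Rep3 ATGTCA, and each group had its own lane, lanes 4 to 6, with the input on lane 7. The index and the replicate number therefore cannot be told apart, whereas each lane held all 3 numbers.

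The Rep3 libraries held 42581837 to 48380580 reads assigned to genes and the other 6 held 38653752 to 50898401. Reads that fell outside any annotated gene made up 7.12% to 7.14% of the reads in the Rep3 libraries and 6.08% to 6.87% in the other 6, without overlap. A two-sided exact permutation test of replicate numbers within groups gave p = 0.0741, the smallest that its 27 arrangements allow, and 0.370 after Benjamini-Hochberg adjustment over 5 library measures. Per 100 reads assigned to genes, these reads came to 13.5 to 14.9 against 11.7 to 14.6, with overlap. The same permutation test gave an unadjusted p of 0.0741 for that ratio. The other 4 measures, which were depth, genes detected and the shares of ambiguous and of multiply aligned reads, gave p of 0.296 to 1 by the same exact test. In a principal component analysis of log2 values centred within each treatment group, the first component held 46.9% of the variance that was left. Saline, cocaine and yoked Rep3 stood at 26.1, 27.6 and 28.4 on it, and the other 6 between -19.2 and -6.94. The second component, with 21.3%, separated none of the replicate numbers.

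Cerebral cortex holds excitatory neurons, which release glutamate, inhibitory interneurons, which release GABA, astrocytes, myelin-forming oligodendrocytes and their precursors, and microglia. Its surface and vessels add meningeal fibroblasts, endothelium, mural cells and macrophages that can present antigen on major histocompatibility complex (MHC) class II molecules. A TRAP library holds mostly RNA of cells that express the tagged protein, with a remainder of untagged RNA, so the level of a marker gene depends on both. In bulk RNA of this kind, fewer cells of a type and less RNA per cell cannot be told apart.

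Of 16642 genes tested with edgeR's quasi-likelihood test, 1627 (9.78%) were called higher in the Rep3 libraries and 1165 (7%) lower at a Benjamini-Hochberg adjusted p under 0.05, which is 16.8% in all. The libraries were grouped on these same values, so the counts describe the libraries and nothing is read from them. The called genes had a median absolute log2 fold change of 0.55, and 87 of the higher and 136 of the lower ones passed 2-fold. All 3 Rep3 libraries lay above the other 6 for 1887 genes (11.3%) and below them for 1426 (8.57%). With any of the 3 Rep3 libraries left out the counts were smaller by over 1.5 times: without saline Rep3 909 higher and 489 lower, without cocaine Rep3 851 and 432, and without yoked Rep3 894 and 389. The count of lower genes was also down to 724 without saline Rep2 and 699 without cocaine Rep2. Of 127 called genes that were named by rule or chosen later, 56 stayed called with each of the 9 libraries left out in turn, among them Cd74, H2-Eb1, H2-Ab1, Col1a1, Slc17a7, Gad1, Gad2, Fabp7 and Ermn. The other 71 lost the call at least once, 54 of them without cocaine Rep3, 45 without yoked Rep3, 41 without saline Rep3, 22 without cocaine Rep2, 21 without saline Rep2 and 2 to 11 without any of the remaining 4.

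**Figure D1:**
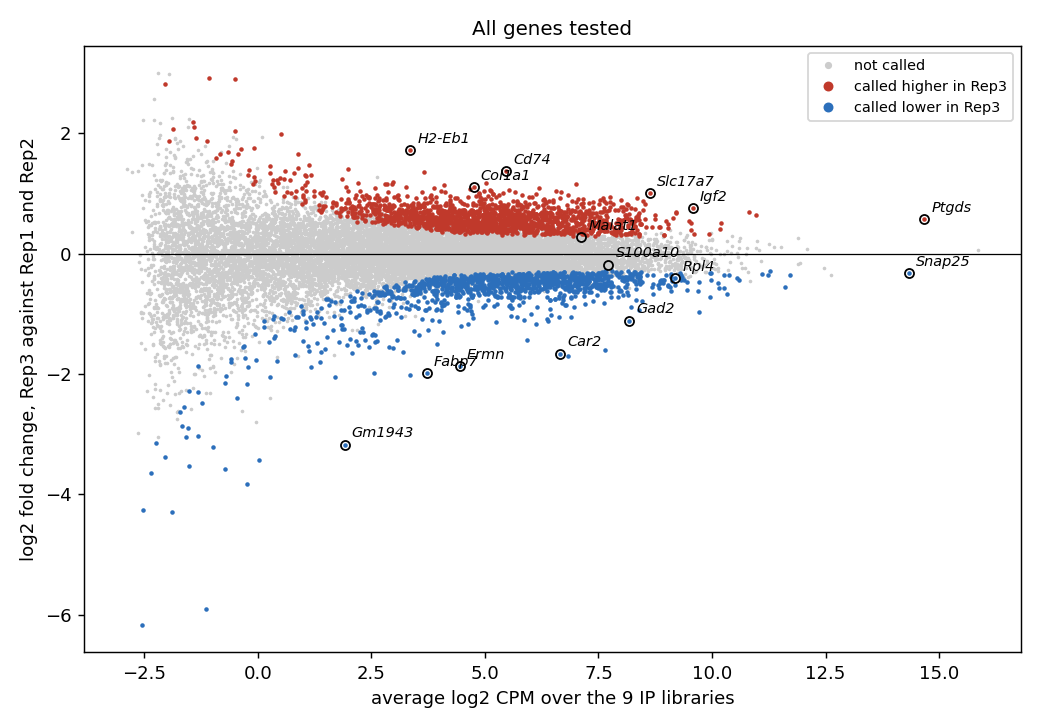
Log2 fold change of the 3 Rep3 libraries against the 6 Rep1 and Rep2 libraries (y axis) against average log2 CPM (counts scaled to library size) over the 9 IP libraries (x axis), 1 point a gene. Red and blue points are the 1627 genes called higher and the 1165 called lower, and circled genes are named in the text.

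The Rep3 libraries were singled out because they stood together, so their likeness across treatment groups was part of the choice and is given as a description. Across 12918 genes with an average of at least 1 log2 CPM, the difference of the Rep3 library from the mean of Rep1 and Rep2 correlated between groups with Pearson's r of 0.53 for saline and cocaine, 0.53 for saline and yoked and 0.57 for cocaine and yoked. Deviations of Rep1 and Rep2 libraries from the mean of all 3 libraries of their group correlated at -0.15 to 0.53 between groups. That mean includes Rep3, so these deviations carry part of the Rep3 difference and are no independent baseline. These values are across genes, which are not independent replicates. A test of whether the difference varied between treatment groups called 0 genes with edgeR, with 494 at an unadjusted p under 0.05, and 7 with DESeq2. In a separate fit, with the replicate number as a factor, Rep2 against Rep1 gave 0 called genes with edgeR. Of the genes tested, 512 had an unadjusted p under 0.05 there. DESeq2 called 1 gene, Neat1, a nuclear noncoding RNA. The standard deviation of the log2 fold change over all genes was 0.53 for Rep3 against Rep1, 0.52 for Rep3 against Rep2 and 0.38 for Rep2 against Rep1, each from 3 libraries against 3.

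Genes of MHC class II antigen presentation were higher in the Rep3 libraries. Of 13 listed genes tested, 7 were called higher and none lower, against 9.78% and 7% of all genes, and their median log2 fold change was 0.84, against -0.02 over all genes tested. The counts of every list below stand against the same shares of all genes, 9.78% higher and 7% lower. Levels below are CPM after scaling by trimmed-mean (TMM) factors. Cd74, the invariant chain that escorts class II molecules, stood at 78.4 in saline Rep3, 74.5 in cocaine Rep3 and 69.95 in yoked Rep3. The other 6 libraries ranged from 24.1 to 33.7 around a median of 29, so the arms did not overlap, and the log2 fold change was 1.37 (SE 0.11), or 2.58-fold. H2-Eb1, a class II beta chain on chr17:34305867-34316674, stood at 17.5, 15.3 and 24.3 against a lowest, median and highest of 3.73, 6.28 and 7.27 (log2 fold change 1.72, SE 0.21). It had the largest difference among the higher genes that the naming rule took. H2-Ab1, another beta chain, stood at 21.3, 18.9 and 22.6 against 5.75, 8.20 and 10.7, again without overlap. Lack of overlap was a condition of the rule that named Cd74, H2-Eb1 and H2-Ab1. H2-Aa, an alpha chain, stood at 49.95, 43.5 and 47.1 against 19.6, 27.5 and 48.0 (log2 fold change 0.74, SE 0.17). Its arms overlapped because saline Rep1, at 48.0, was as high as the Rep3 libraries. H2-DMa, whose product loads peptides, stood at 18.3, 15.4 and 15.0 against 8.18, 8.59 and 10.8. Ifi30 and Ctss, a thiol reductase and a protease of antigen processing, had log2 fold changes of 0.61 and 0.66. Ciita, the transactivator of class II genes, was near 1 CPM in every library, at 1.10, 1.04 and 1.04 against 0.937, 1.18 and 1.33, and was not called. The count of 7 was 4 without cocaine Rep3.

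The upstream sequences of the class II chains are shown because these genes differed together. Both are the 150 bases before the annotated start, from RefSeq (GRCm38.p6), at chr17:34287824-34287973 on the minus strand for H2-Aa and chr17:34305717-34305866 on the plus strand for H2-Eb1, written 5′ to 3′ with every match to ATTGG, the core of the Y box, on either strand in capitals.
H2-Aa: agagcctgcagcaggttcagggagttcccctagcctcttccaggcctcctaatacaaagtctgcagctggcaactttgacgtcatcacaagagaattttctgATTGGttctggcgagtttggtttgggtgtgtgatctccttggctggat
H2-Eb1: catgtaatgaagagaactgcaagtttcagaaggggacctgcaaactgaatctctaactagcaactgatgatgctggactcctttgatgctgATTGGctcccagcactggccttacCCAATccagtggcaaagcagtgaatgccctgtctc
The longer run CTGATTGG, chosen after the sequences were seen, occurs in both, beginning 51 bases before the start in H2-Aa and 62 in H2-Eb1. The core ATTGG occurs in 24.5% of the 32851 upstream sequences of this length in the table and CTGATTGG in 3.16%. These matches describe the letters alone.

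Other genes of myeloid and antigen-presenting cells gave a mixed picture. Cd209a, a lectin of dendritic cells, stood at 7.48, 6.97 and 5.72 against 1.93, 2.52 and 3.16 (log2 fold change 1.41, SE 0.20). Fcer1g, a signalling chain of Fc receptors, stood at 6.35, 6.42 and 9.02 against 2.24, 3.15 and 4.16, and the class I gene H2-Q1 at 39.5, 53.9 and 59.4 against 14.2, 23.6 and 36.0. In all 3 genes every Rep3 library was above the other 6, which the naming rule required. The same held for 11.3% of all genes tested. Itgax, an integrin of dendritic cells, and Mrc1, a mannose receptor of border macrophages, were called higher at low levels. Itgax stood at 1.36, 0.979 and 0.655 against 0, 0.0899 and 0.469, and Mrc1 at 1.91, 2.30 and 1.65 against 0.343, 0.826 and 1.22. Of 18 microglial genes tested, 3 were called higher, Tmem119, Olfml3 and Ctss, and 1 lower, Aif1, and the count of 3 was 1 without saline Rep3 or cocaine Rep3. Those were 16.7% and 5.56% of the list, against 9.78% and 7% of all genes. The defining microglial receptors did not differ beyond the spread: P2ry12 stood at 1.94, 2.63 and 2.76 against 1.28, 2.66 and 3.86, and Cx3cr1 at 1.82, 2.41 and 2.40 against 0.678, 1.67 and 2.82. Of 9 border macrophage genes tested only Mrc1 was called, and Cd163 and Lyve1 had log2 fold changes of -0.59 (SE 0.47) and 0.13 (SE 0.33). None of 20 interferon response genes was called in either direction. The summed CPM of the class II list was 205, 191 and 200 in the Rep3 libraries and 74.9 to 124 in the others. The summed microglial list was 107, 99.2 and 120 against 72.4 to 90.0, also without overlap. The border macrophage list overlapped, at 67.8, 85.1 and 78.3 against 65.1 to 108.

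Collagens and other genes of fibroblasts and vessels were also among those with higher levels. Of 18 fibrillar collagen and matrix genes, 11 were called higher and none lower, with a median log2 fold change of 0.63. Col1a1, the alpha 1 chain of type I collagen on chr11:94936224-94953042, stood at 40.9, 41.2 and 43.1 against 17.7, 19.0 and 23.05 (log2 fold change 1.11, SE 0.10). The 3 Rep3 libraries were alike and all above the others. Col1a2, the partner chain, stood at 95.0, 104 and 108 against 56.7, 61.6 and 83.5, and Fn1, fibronectin, at 127, 119 and 159 against 68.3, 78.8 and 106. Col6a3 and Fbn1, a microfibrillar collagen chain and fibrillin 1, both had log2 fold changes of 0.81. The count of 11 was 7 without cocaine Rep3 and 6 without yoked Rep3. It was 1 when Rep3 was set against Rep1 alone and stayed within 1.5 times against Rep2 alone. Of 13 genes of the arachnoid barrier and of junctions 3 were called higher, Dpp4, Ptgds and Gjb2, with a median of 0.51, and 6 were called higher without saline Rep1.

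Of 22 genes of meningeal fibroblasts 9 were called higher and none lower, with a median of 0.31. Igf2, a growth factor secreted by the meninges, stood at 973, 1121 and 1026 against 524, 630 and 702, and Slc13a4, a sulfate transporter, at 485, 426 and 552 against 257, 288 and 376. Lum, a matrix proteoglycan, and Slc22a6, an organic anion transporter, had log2 fold changes of 0.56 and 0.55. Transcription factors and enzymes of the same cells did not differ beyond the spread. Foxc1 stood at 66.0, 84.7 and 75.9 against 52.6, 63.1 and 97.9, Twist1 had a log2 fold change of 0.01 (SE 0.22) and Aldh1a2, which makes retinoic acid, one of 0.12 (SE 0.15). The summed level of the list was 3719, 3782 and 3870 against 2374 to 3540, where the highest of the other libraries was again saline Rep1. Ptgds, a prostaglandin synthase of arachnoid and meningeal cells and the most abundant protein-coding gene printed here, stood at 38679, 28055 and 33915 against 19240, 21802 and 28265, and cocaine Rep3 was within the range of the others. The count of 9 was 5 without cocaine Rep3. It was 3 when Rep3 was set against Rep1 alone and 17 against Rep2 alone.

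Of 19 endothelial genes 7 were called higher and 1 lower. Cdh5, the cadherin of endothelial junctions, stood at 20.5, 21.8 and 23.1 against 11.4, 13.2 and 16.5, and the growth factor receptors Flt1 and Kdr had log2 fold changes of 0.89 and 0.85. Ptprb, a receptor phosphatase of endothelium, stood at 3.51, 4.12 and 3.05 against 0.448, 1.49 and 2.53. Mfsd2a, a lipid transporter of the blood-brain barrier, was the gene called lower, and the junction gene Cldn5 was below 2 CPM in every library and was not called. The count of 7 was 2 without saline Rep3 and 3 without cocaine Rep3, yoked Rep3 or cocaine Rep2. It was 1 when Rep3 was set against Rep1 alone and stayed within 1.5 times against Rep2 alone. Of 14 mural cell genes 4 were called higher and none lower, and 11 had a log2 fold change above 0 and 3 below. Among the 4 were Pdgfrb, a receptor of pericytes, at 27.5, 24.1 and 29.4 against 13.8, 15.8 and 17.0, and Vtn, vitronectin, at 153, 136 and 151 against 79.4, 91.8 and 111. Rgs5, Higd1b and Kcnj8 of the same list were not called, with log2 fold changes of -0.40, -1.47 and 0.02 in a fit with limma in place of edgeR. Blood genes were low throughout: Hbb-bs, a haemoglobin chain, stood at 2.94, 1.61 and 0.814 against 1.08, 2.34 and 3.09, and none of 5 blood genes tested was called.

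**Figure D2:**
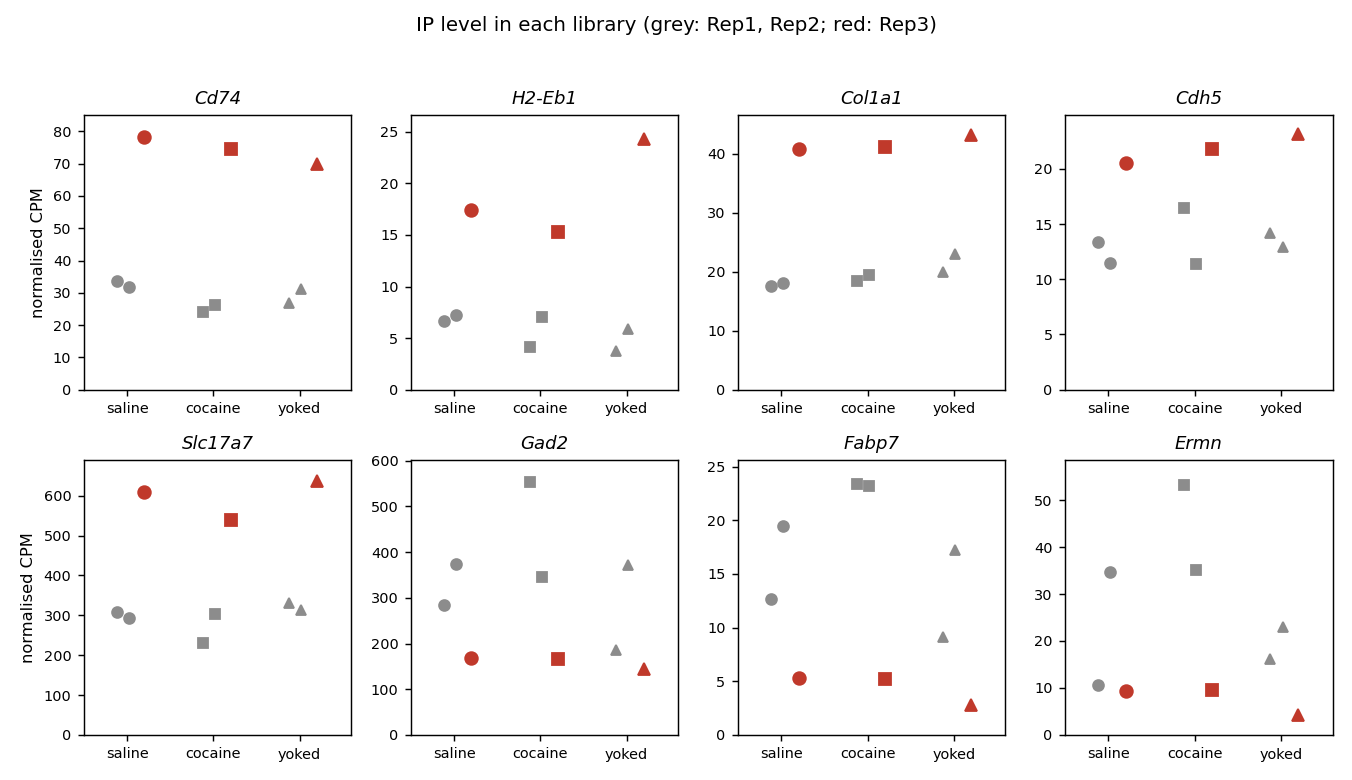
Normalised CPM (y axis, from 0) of 8 genes in each IP library by treatment group (x axis), with Rep1 and Rep2 in grey and Rep3 in red. In every panel the 3 Rep3 points lie above (Cd74, H2-Eb1, Col1a1, Cdh5, Slc17a7) or below (Gad2, Fabp7, Ermn) all 6 grey points. The genes were chosen with their values known, some by a rule that required this separation, so it reflects the choice. Over all genes tested 11.3% lay above and 8.57% below in this way. H2-Aa, Camk2a, Mbp and Aldoc, genes of the same lists or cell types, overlapped and are not shown.

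Of 16 excitatory neuron genes 6 were called higher and none lower. Slc17a7, the vesicular glutamate transporter 1 on chr7:45163949-45176142, stood at 609, 539 and 636 against 230, 305 and 332 (log2 fold change 1.003, SE 0.10). Every Rep3 library was above the other 6. The related transporter Slc17a6 stood at 30.8, 28.8 and 31.8 against 19.6, 22.6 and 23.7, and Lingo1, a receptor component on neurons, at 479, 454 and 484 against 214, 254 and 280. Sv2b, a synaptic vesicle protein, Rtn4rl1, a receptor related to the Nogo receptor, and Nptx1, a synaptic pentraxin, had log2 fold changes of 0.58, 0.77 and 0.35. The other 10 genes of the list were not called. Camk2a, a kinase of glutamatergic synapses, stood at 2073, 2388 and 2170 against 1360, 1955 and 2371, and Neurod2, a transcription factor, had a log2 fold change of 0.08 (SE 0.11). The median over the list was 0.11, and its summed level of 8236, 8449 and 9119 overlapped that of the other 6 libraries, 6847 to 8904.

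Of 20 interneuron genes 8 were called lower and 1 higher, with a median of -0.63. Gad2 and Gad1 encode the enzymes that make GABA. Gad2, on chr2:22622205-22693874, stood at 168, 167 and 143 against 186, 359 and 553, so that yoked Rep1, the lowest of the other libraries, was close to the Rep3 values. Gad1 stood at 49.0, 54.2 and 38.3 against 59.6, 106.5 and 144. Pvalb, the calcium-binding protein of basket cells, stood at 8.03, 8.05 and 4.43 against 9.78, 20.5 and 29.6, and Vip, a neuropeptide, at 3.37, 2.22 and 2.49 against 4.61, 7.69 and 9.76. Dlx1, Dlx2, Dlx5 and Sox6, transcription factors of the interneuron lineage, were the other 4 called lower. Cck, a neuropeptide of interneurons that pyramidal cells also express, was called higher at 369, 336 and 343 against 207, 243 and 250. The neuropeptide genes Sst and Npy were not called, with log2 fold changes of 0.25 (SE 0.16) and 0.22 (SE 0.17). The summed interneuron list overlapped, at 1384, 1334 and 1207 against 1107 to 1686. The count of 8 was 5 without cocaine Rep3.

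General neuronal genes were divided. Syp, Syt1 and Thy1, a synaptic vesicle protein, a calcium sensor of release and a surface glycoprotein, were called higher with log2 fold changes of 0.50, 0.41 and 0.54. Snap25, Eno2, Stmn3 and Elavl4, which encode a fusion protein, a neuronal enolase, a microtubule regulator and an RNA-binding protein, were called lower with -0.33, -0.57, -0.52 and -0.37. Only 1 of the 3 stayed called higher without saline Rep3, and 1 of the 4 lower without cocaine Rep3 or yoked Rep3. Genes of layers 2 to 5 were divided as well. Among layers 2 to 4, Cux1 and Unc5d were called higher and Calb1 lower. The count of 2 higher was 1 without saline Rep2, saline Rep3, cocaine Rep2, cocaine Rep3, yoked Rep1 or yoked Rep3, and that of 1 lower was 0 without cocaine Rep3. Of 14 layer 5 genes 1 was called higher and 1 lower, and both counts were 0 without saline Rep3 or cocaine Rep3. Of 12 layer 6 genes 3 were called lower and 1 higher, with a median log2 fold change of -0.24. The summed layer 6 level was 285, 300 and 236 against 302 to 355, without overlap. The layer 6 gene Cplx3, a complexin, stood at 0.717, 1.37 and 0.407 against 1.54, 2.93 and 4.26. The receptor gene Met, at 14.4, 11.5 and 10.4 against 2.71, 6.32 and 7.91, and Insrr, a receptor related to the insulin receptor, at 4.71, 2.65 and 2.76 against 1.03, 1.25 and 1.80, were among the largest differences upward. Lists for neighbouring regions were measured as well. Of 14 striatal genes 1 was called higher and 2 lower, of 13 hippocampal and thalamic genes none, of 11 choroid plexus and ependymal genes 1 higher and 1 lower, and of 11 bone and muscle genes none. Over all genes 9.78% were called higher and 7% lower, so nothing is read from counts this small. Of 12 genes of olfactory bulb and ensheathing glia 3 were called lower, among them Fabp7 and Sox10, which astrocytes or oligodendrocytes also express.

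Of 18 oligodendrocyte genes 9 were called lower and none higher, against 7% and 9.78% of all genes. The median of -0.97 was the lowest of the 35 lists. Ermn, a cytoskeletal protein of myelin on chr2:58045113-58052864, stood at 9.41, 9.54 and 4.23 against 10.7, 28.9 and 53.3 (log2 fold change -1.87, SE 0.32). Mbp, myelin basic protein, stood at 71.6, 80.7 and 75.5 against 54.7, 120 and 160. In both genes saline Rep1 was the lowest of the other libraries, and for Mbp it was below the Rep3 range. Car2, a carbonic anhydrase of oligodendrocytes, stood at 41.9, 53.1 and 27.4 against 69.4, 133 and 221 without overlap, which the naming rule required. The summed list was 383, 395 and 294 in the Rep3 libraries. It was 364 in saline Rep1, 456 in yoked Rep1 and 677 to 1019 in the remaining 4, so the arms overlapped through saline Rep1. The count of 9 was 15 without saline Rep1, 5 without cocaine Rep3 and 4 without yoked Rep3. It was 2 when Rep3 was set against Rep1 alone and 15 against Rep2 alone.

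The median of the oligodendrocyte list was below the input in every IP library. Against the single input, which has no spread of its own, the median log2 ratio of the oligodendrocyte list was -3.15 to -2.47 in the Rep3 libraries and -2.98 to -0.98 in the other 6. The excitatory list was 0.10 to 0.16 against -0.41 to -0.10, and the class II list 1.96 to 2.79 against 0.61 to 2.11. The meningeal fibroblast list was far above the input throughout, at 4.65 to 4.75 against 4.07 to 4.83. Libraries described as neuronal held genes of the meninges well above the input in both arms.

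Of 20 astrocyte genes 5 were called lower and 1 higher. Fabp7, a fatty acid binding protein of astrocytes, immature cells and ensheathing glia on chr10:57784881-57788450, stood at 5.30, 5.20 and 2.80 against 9.13, 18.4 and 23.4 (log2 fold change -1.99, SE 0.23), without overlap. The naming rule that took Fabp7 required this lack of overlap. Aldoc, a glycolytic enzyme, stood at 84.4, 96.3 and 63.5 against 94.6, 279 and 495. Acsbg1, an acyl-CoA synthetase, Gfap, an intermediate filament, and the water channel Aqp4 had log2 fold changes of -2.01, -1.56 and -1.04, with overlapping arms in each. Aldh1l1 and Slc1a3, a folate enzyme and a glutamate transporter that also define astrocytes, had log2 fold changes of 0.07 (SE 0.11) and -0.18 (SE 0.12). The count of 5 was 9 without saline Rep1 and 3 without cocaine Rep3 or yoked Rep3. The median log2 fold change of the list was -0.25, whereas its summed level was 5089, 5158 and 4930 against 3945 to 4521 in 5 of the others and 5133 in cocaine Rep1. Oligodendrocyte precursor genes, of which Pdgfra was also in the meningeal fibroblast list, were divided. Pdgfra, Tnr and Bmp4 were called higher and Olig2 and Neu4 lower. Of the 3 none stayed called without saline Rep2, cocaine Rep2 or yoked Rep3, and 1 without saline Rep3 or cocaine Rep3, and of the 2 lower genes 1 without saline Rep3 or cocaine Rep3. The remaining large differences downward named by the rule included Sox21 and Nr2e1, transcription factors of neural precursors, with log2 fold changes of -2.05 and -1.55, Phgdh, an enzyme of serine synthesis, with -1.80, St18, a transcription factor, with -1.58, and Hspa1b, a heat shock protein, with -1.53. Gm1943 had the lowest value of this set, at 0.334, 1.20 and 0.294 against 2.44, 5.77 and 7.62.

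**Figure D3:**
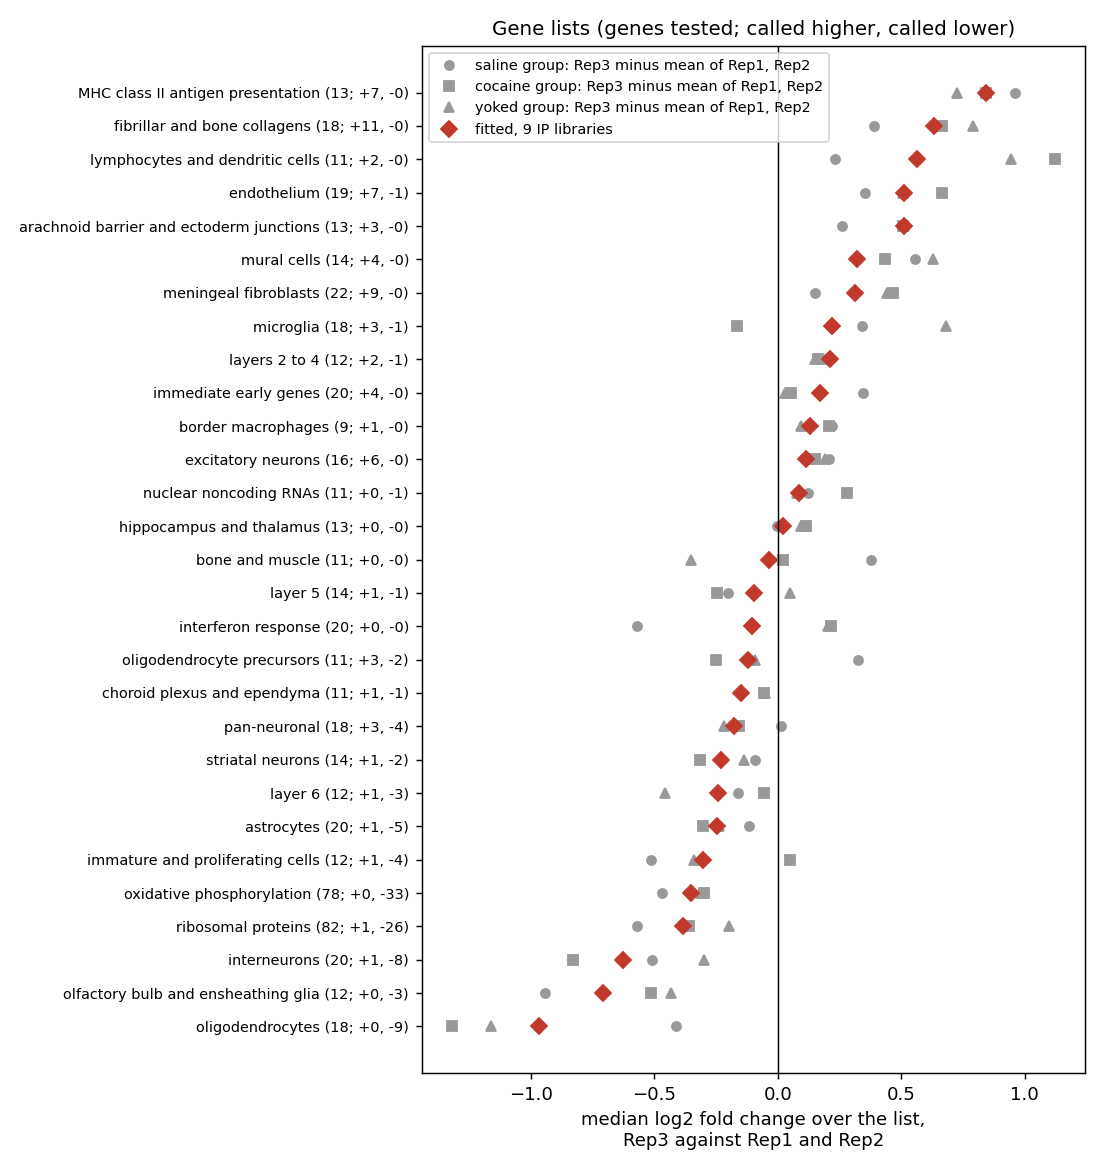
Median log2 fold change over each gene list with at least 9 genes tested (x axis), fitted over the 9 IP libraries (red) and as the difference of Rep3 from the mean of Rep1 and Rep2 within each treatment group (grey). Lists run from MHC class II at 0.84 to oligodendrocytes at -0.97, and in both all 3 groups lie on the same side of 0.

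Of 82 ribosomal protein genes 26 were called lower, 1, Rpl30, was called higher and 55 were not called, with a median log2 fold change of -0.38. Rps24 stood at 70.4, 62.6 and 74.5 against 94.6, 130 and 163, and Rpl4 at 480, 480 and 476 against 536, 664 and 694. The count of 26 was 3 without saline Rep3, 6 without cocaine Rep3, 10 without cocaine Rep2 and 13 without saline Rep2. Many ribosomal protein genes have near-identical pseudogenes and multiply aligned reads were not assigned to genes, so these levels are uncertain. Of 78 genes of oxidative phosphorylation 33 were called lower, none higher and 45 were not called, with a median of -0.35. Atp5a1, an ATP synthase subunit, stood at 965, 969 and 864 against 1297, 1343 and 1663, and Ndufb4, of complex I, at 16.2, 17.3 and 13.4 against 21.4, 31.02 and 41.2. The count of 33 was 14, 18 and 17 without saline, cocaine and yoked Rep3.

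The gene whose sequences drive the tag did not differ beyond the spread. S100a10 stood at 174, 168 and 232 against 183, 202 and 285, and at 36.3 in the input, and its log2 fold change was -0.19 (SE 0.14). Rpl10a, in which tagged and endogenous copies cannot be told apart, had a log2 fold change of -0.12 (SE 0.20). Ahnak, a scaffold protein that binds the S100a10 product, was called higher at 134, 148 and 152 against 60.5, 96.6 and 123. It was the only 1 called of 5 listed partners tested, whose median log2 fold change was -0.01. Ahnak was no longer called without cocaine Rep3 or yoked Rep3. Among immediate early genes, which neuronal activity induces, Egr1, Egr2, Egr3 and Egr4 were called higher of 20 tested, with log2 fold changes of 0.33, 0.64, 0.49 and 0.52, whereas Arc had 0.18 (SE 0.18). Of the 20 genes 2 were called higher without cocaine Rep2, cocaine Rep3 or yoked Rep3. Their arms overlapped except for Egr4, at 19.3, 24.7 and 19.1 against 9.96, 15.6 and 18.0. The female-specific RNA Xist was below 0.3 CPM in every IP library. Of the Y-linked genes Ddx3y and Eif2s3y were called lower, with log2 fold changes of -0.51 and -0.85, and Uty and Kdm5d were not called, at 0.12 and -0.09. The count of 2 was 1 without cocaine Rep3 or yoked Rep3, where Ddx3y was no longer called.

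Nuclear RNA, which ribosomes do not hold, was low in both arms. Malat1 stood at 140, 170 and 156 in the Rep3 libraries and between 87.9 and 249 in the others, against 3839 in the input. Rian and Meg3, nuclear noncoding RNAs like Malat1, had log2 fold changes of -0.56 and 0.39. AK140265, the transcript with 45043 CPM in the input, stood at 129, 159 and 142 in the Rep3 libraries and at 54.1 to 78.3 in the other 6, without overlap. What kind of RNA AK140265 is, and whether it is nuclear, was not given in the sources used here. The part of RNA carried over without the tag in the differences above was not tested.

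The size of the difference varied with transcript length and base composition. Across the 12168 genes that had an annotated length and an average of at least 1 log2 CPM, the log2 fold change correlated with GC content at Spearman's rho 0.22 and with length at 0.28, values across genes that are not independent replicates. With the genes cut into 5 equal sets, the median was -0.12 in the set with the lowest GC content and 0.10 in that with the highest, and -0.12 in the set of the shortest and 0.15 in that of the longest genes. Both trends were then removed from the log2 values by a smooth fit, with limma in place of edgeR. This covered the 15091 of 16642 genes tested that had a length. It called 1254 genes higher and 972 lower, against 1556 and 1195 with limma alone on the same genes. Of the 2792 genes called by edgeR over all 16642, 2616 were called again with limma alone and 1816 with both trends removed. Cd74 then had a log2 fold change of 1.36, H2-Eb1 1.78, Col1a1 0.74, Slc17a7 0.88, Fabp7 -1.73, Gad2 -1.16 and Ermn -1.69, and all 7 were called. Of 127 called genes that were chosen for naming, 124 had a length, and 16 of these were no longer called. Among the 16 were Col6a3 at 0.46, Fbn1 at 0.42, Fn1 at 0.39, Nptx1 at 0.10, Cux1 at 0.09, Egr1 at 0.16, Egr4 at 0.28 and Snap25 at -0.22. The list medians were 0.86 for class II, 0.44 for collagens, -0.68 for interneurons, -0.88 for oligodendrocytes, -0.25 for ribosomal proteins and -0.25 for oxidative phosphorylation. Fewer collagen and ribosomal protein genes were called than before, 6 and 14. Whether length, GC content or the index read took part in the differences was not tested further.

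**Figure D4:**
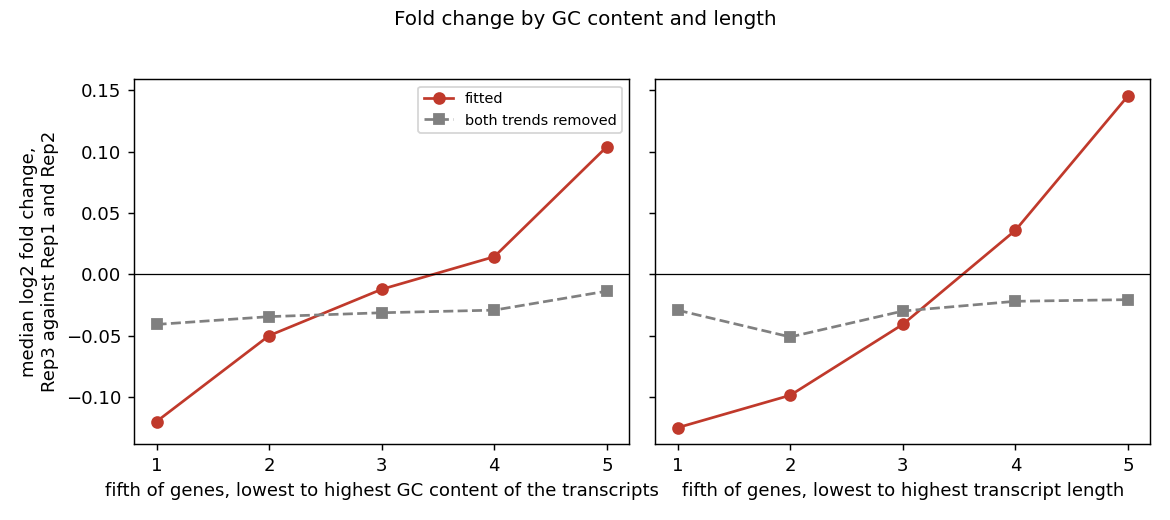
Median log2 fold change of Rep3 against Rep1 and Rep2 (y axis) in 5 equal sets of genes ordered by GC content (left) and by transcript length (right), as fitted with edgeR (red) and after removal of both trends with limma (grey). The red line goes from -0.12 to 0.10 for GC content and from -0.12 to 0.15 for length, and the grey lines stay within -0.05 and -0.01.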

How the data were processed

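The authors deposited 1 table of raw read counts per gene symbol for each library, with 32531 genes and 6 entries that name no gene, made with STAR 2.0.0e and HTSeq on mm10 per the submitters' processing notes. The annotation, strand setting and HTSeq version were not given in the sources used here, so overlapping and antisense genes cannot be separated. Those entries served only as shares of reads and did not enter library sizes: in the IP libraries 6.08% to 7.14% without a feature, 1.58% to 1.90% ambiguous and 38.3% to 46.8% aligned to several places.

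Rep3 was compared with Rep1 and Rep2 over the 9 IP libraries with the treatment group as a term (edgeR 4.0.16 in R 4.3.3, TMM factors, filterByExpr with a minimum count of 10, 5 residual degrees of freedom), with genes called at an adjusted p under 0.05. The SE is the absolute log2 fold change over the square root of F. Alternatives used DESeq2 1.42.0 and limma 3.58.1 with loess removal of trends. The code was tested on simulated data. Values against the input come from TMM factors over all 10 libraries. The members, lists and tests were chosen with earlier results of these data known. Genes were named by rule: in each direction at most 12 called genes, ranked by fold change, whose average log2 CPM reached 1 and whose arms did not overlap, the markers Cd74, H2-Eb1, Col1a1, Slc17a7 and Fabp7, S100a10, Rpl10a, Ptgds, Rn45s, Malat1 and Xist, and in each list the 4 most abundant and the 2 most different genes. Other genes, such as Itgax, Mrc1, Gad1, Aldoc, P2ry12 and AK140265, were chosen after their values were seen. Lengths and GC content came from GENCODE vM21 and covered 90.7% of the genes tested. A few genes of the lists are counted but not reported here by name.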

Additional observations from a re-analysis of the deposited data

Results flagged for a closer look

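Among the 6 Rep1 and Rep2 libraries, 1 stood far from the other 5 in 19 of the 283 gene levels, list sums and library measures examined, by Dixon's criterion for 6 values (0.625), which chance meets in about 1 in 20 groups. Saline Rep1 was the highest for Col1a2 at 83.5 CPM, Twist1 at 21.2, Cldn11, a claudin of myelin and arachnoid, at 65.6, Kl, of choroid plexus, at 26.0, Maf, a macrophage transcription factor, at 97.6, Aif1 at 8.17, Oasl2 and Bst2, which interferon induces, at 50.2 and 9.19, and for the summed border macrophage list at 108. Cocaine Rep1 was the highest for Atp5a1 at 1663, Slc1a3 at 115 and the summed layer 6 list at 355, and the lowest for Slc17a7 at 230. Yoked Rep1 was the lowest for Chn1, a signalling protein of neurons, at 858, and for the complement gene C1qb at 0.5997, and the highest for Ttr, of choroid plexus, at 23.0, where the others reached at most 1.22. Yoked Rep2 was the highest for Malat1 at 249. Saline Rep2 was the highest for the ribosomal RNA precursor Rn45s at 100327 CPM, or 9.75% of its gene counts, where the others held 4.43% to 5.65%.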

How the results depend on the processing

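No paired analysis was possible because the replicate number is itself the contrast. The genes called higher in Rep3 (1627) and lower (1165) came to 518 and 241 when the Rep2 libraries were left out. The lower count came to 1761 when the Rep1 libraries were left out. With the Rep2 libraries left out, 4 class II genes were still called higher. In the same setting 4 interneuron, 7 ribosomal protein and 14 oxidative phosphorylation genes were called lower. The counts were 1064 and 619 without the saline group, 664 and 363 without the cocaine group, and 1015 and 506 without the yoked group. Leaving out 1 library each gave 851 to 1899 higher and 389 to 1490 lower. Under 10 further settings (RLE and upper quartile factors, DESeq2, other filters, no group term, Rn45s and Ptgds left out, trends removed, limma) both counts stayed within 1.5 times. Genes called in Rep2 against Rep1 numbered 1 with DESeq2 and 0 to 116 with 1 library left out, the highest without cocaine Rep1. Genes whose difference varied by group numbered 7 with DESeq2 and 0 to 24, the highest without yoked Rep2. The medians of 12 of the 35 lists changed sign under at least 1 alternative, and 11 of them were nearer to 0 than the SD of their 3 group values. The other, that of border macrophages (0.13), turned to -0.19 against Rep1 alone, -0.037 without the cocaine group and -0.0055 without saline Rep2, within -0.041 to 0.27 over all single libraries left out; the cause was not tested. Where a library is left out, a Rep3, Rep2 or Rep1 arm of its group rests on the other groups' spread. Genes near or below 1 CPM, such as Itgax, rest on few reads.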

Other observations

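The 7 genes whose Rep3 difference varied by treatment group with DESeq2 were AK184713, AK207688, Cxcl10, Dusp1, Nr4a2, Serpina3n and Sncg, chosen after their values were seen. Cxcl10, a chemokine, stood at -1.504 log2 units from the mean of Rep1 and Rep2 in saline Rep3, and above it by 0.90 in cocaine Rep3 and 1.32 in yoked Rep3. Serpina3n, a protease inhibitor, stood above it by 2.01 in saline Rep3 and 0.75 in yoked Rep3 and at -1.23 in cocaine Rep3. Each difference rests on 1 Rep3 library.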
